A study of Mus musculus with 43 samples.

Results

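Krt8, Krt18, Krt19, Epcam, Ltf, Aqp5, Ap1m2, Csn3, Krt14 and Krt5 are 10 genes of lining and glandular epithelium, described here in inguinal white adipose tissue (WAT). They were selected on their FPKM in the 4 WAT groups, by name, and each matched 1 single-gene row among the 42349 rows of the table. FPKM is fragments per kilobase of transcript scaled to the number of mapped fragments, a level that allows for transcript length. Their WAT differences are therefore a description with a standard error (SE) and carry no test, whereas other epithelial genes in WAT and the same 10 genes in other tissues were tested.

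Female mice were taken at 15 months of age, and poly-A RNA was sequenced from 4 tissues: inguinal WAT, muscle of the skeleton, liver and brain. Wild-type (WT) mice and mice with a global deletion of the insulin receptor substrate 1 gene (Irs1-/-, KO) had food ad libitum (AL) or 30% dietary restriction (DR) for 12 months, which gives 16 groups and 43 libraries. In WAT the labels list 2 libraries for WT AL, 3 for KO AL, 2 for WT DR (the design text gives 3) and 3 for KO DR. The table holds 1 pooled FPKM per group with the authors' 95% interval and no value per library, so library depth is unknown and no group could be recomputed without a library. The median SD over entries with an FPKM of at least 1 was 32.3% of the FPKM in WT AL WAT, 36.1% in KO AL, 62.3% in WT DR and 46.3% in KO DR. Irs1 itself had an FPKM of 2.47 in WT AL WAT, 5.37 in KO AL, 6.56 in WT DR and 2.58 in KO DR. Its FPKM was lower in the KO group in 1 of 8 comparisons of KO with WT on the same diet, so its values go against the genotype labels or were counted outside the deleted part, which cannot be told apart here, and KO below means the groups labelled KO.

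Epithelial cells form sheets joined by tight junctions and desmosomes, and each sheet is braced by paired keratins. Krt8, Krt18 and Krt19 are the keratins of simple, single-layered epithelium, and Krt5 and Krt14 are those of the basal layer of stratified epithelium and of myoepithelium. The inguinal fat of female mice surrounds a mammary gland, whose ducts hold both kinds of layer and whose alveoli make milk proteins in lactation. Inguinal fat is subcutaneous and has no covering of mesothelium, the cell layer that lines body cavities and also makes Krt8, Krt18 and Krt19.

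The 10 genes lie on 5 chromosomes of GRCm38. Krt8 (chromosome 15, 101996698 to 102004482, minus strand) and Krt18 (chromosome 15, 102028180 to 102032027, plus strand) are neighbours, 23.7 kb apart, and their proteins form 1 filament together. Krt5 (101707070 to 101712898) and Aqp5 (99590782 to 99594829) are on the same chromosome, and Krt19 (100140810 to 100148665) and Krt14 (100203162 to 100207548) are on chromosome 11. Epcam is on chromosome 17 (87635979 to 87651129), Ltf (111019271 to 111042767) and Ap1m2 (21294275 to 21312337) are on chromosome 9, and Csn3 (87925579 to 87932665) is on chromosome 5. The locus that the table gives for Csn3 runs from 87908579 to 88008534 and takes in neighbouring genes.

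RefSeq gives a promoter for 8 of the 10 genes (GRCm38.p6), with no entry for Krt19 and Csn3. The 100 bases upstream of the outermost annotated start are shown for 4 genes that were high in the same WAT groups, with each CACCTG E-box (on either strand, CAGGTG on the other) in capitals. The match of Krt18 lies outside the stretch shown. The E-box is the site that the Zeb and Snail repressors of epithelial genes bind.
Krt18, chr15:102028080-102028179, plus strand: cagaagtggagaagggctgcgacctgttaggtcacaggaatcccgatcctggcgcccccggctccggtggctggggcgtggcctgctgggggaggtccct
Epcam, chr17:87635879-87635978, plus strand: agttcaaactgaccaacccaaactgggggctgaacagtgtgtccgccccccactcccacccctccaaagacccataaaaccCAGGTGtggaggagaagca
Ltf, chr9:111019171-111019270, plus strand: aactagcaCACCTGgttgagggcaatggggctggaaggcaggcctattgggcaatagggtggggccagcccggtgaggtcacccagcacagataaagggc
Ap1m2, chr9:21312338-21312437, minus strand: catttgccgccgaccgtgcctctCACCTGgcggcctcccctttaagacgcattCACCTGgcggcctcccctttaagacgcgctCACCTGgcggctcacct

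In the 250 bases before the RefSeq start, CACCTG was found in 6 of the 8 promoters (not in those of Aqp5 and Krt14) and in 17.2% of all 32851 promoters. Ap1m2 held 4 matches, 3 of them in the repeated stretch above, a number reached or passed by 14 promoters or 0.0426%. Epcam held 2 matches, a number reached or passed by 2.06% of promoters. This motif was searched for after the sequences had been read. Of the other motifs searched on both strands, GGGCGG (a GC box) was in 2 of the 8 and in 32.7% of all promoters, and GGAAGT (the core of an ETS site) in 2 of the 8 and in 19.7%. TATAAA (in 12.4% of all promoters), TGANTCA (an AP-1 site, 6.75%) and AACCNGGTT (a grainyhead-like site, 0.24%) were in none of the 8. These are matches of letters and were not measured as binding.

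The simple keratins were detected in all 4 WAT groups and were highest in both KO groups. Krt8 had an FPKM of 2.57 in WT AL WAT (95% interval 1.39 to 3.75), 24.9 in KO AL (5.50 to 44.2), 3.04 in WT DR (0.884 to 5.20) and 17.8 in KO DR (4.69 to 30.9). The difference between KO and WT was 3.27 on the log2 scale (SE 0.65, 9.67-fold) under AL and 2.55 (SE 0.74, 5.85-fold) under DR. The intervals of the AL groups did not overlap, and those of the DR groups did.

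Krt18 had an FPKM of 2.54 in WT AL WAT (0.841 to 4.23), 35.3 in KO AL (9.60 to 60.9), 3.61 in WT DR (1.05 to 6.17) and 34.2 in KO DR (6.54 to 61.9). It differed by 3.80 on the log2 scale (SE 0.71, 13.9-fold) under AL and by 3.24 (SE 0.78, 9.47-fold) under DR, and the intervals of KO and WT did not overlap on either diet. The FPKM of Krt8 was 1.01 times that of Krt18 in WT AL WAT, 0.705 times in KO AL, 0.843 times in WT DR and 0.521 times in KO DR.

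Krt19, a simple keratin that also marks duct cells and mesothelium, was the highest of the 10 genes in every WAT group. Its FPKM was 11.4 in WT AL (5.28 to 17.6), 55.9 in KO AL (25.1 to 86.7), 19.0 in WT DR (0.202 to 37.8) and 41.3 in KO DR (4.82 to 77.7). Its log2 difference was 2.29 (SE 0.56) under AL, smaller than that of Krt18, and 1.12 (SE 0.96) under DR, where the intervals overlapped.

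**Figure D1:**
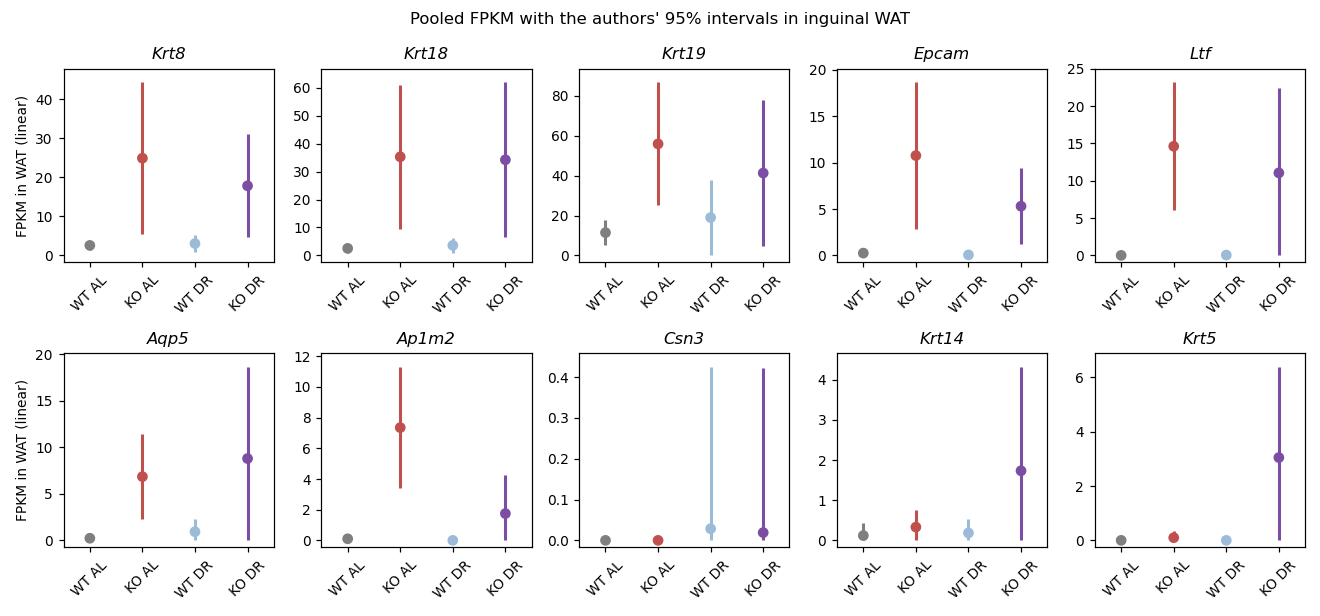
FPKM of the 10 genes in inguinal WAT on linear axes, 1 panel per gene, with the pooled value of each group as a point and the authors' 95% interval as a line. Both KO groups stand above both WT groups for Krt8, Krt18, Krt19, Epcam, Ltf, Aqp5 and Ap1m2, Krt14 and Krt5 are highest in KO DR, and Csn3 is at most 0.0286 in every group.

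Epcam, an adhesion molecule at the sides of epithelial cells, was near 0 in both WT groups. Its FPKM was 0.255 in WT AL WAT (0 to 0.579), 10.8 in KO AL (2.88 to 18.6), 0.0599 in WT DR (0 to 0.204) and 5.31 in KO DR (1.24 to 9.37). The log2 difference was 5.40 (SE 1.06) under AL and 6.47 (SE 1.82) under DR, and the intervals of KO and WT were apart on both diets.

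Ap1m2, the epithelial adaptor subunit that sorts proteins to the basolateral membrane, had an FPKM of 0.103 in WT AL WAT (0 to 0.313) and 7.35 in KO AL (3.42 to 11.3). It was listed at 0 in WT DR and had 1.75 in KO DR (0 to 4.29). The log2 difference under AL was 6.16 (SE 1.52), and no difference was computed under DR because WT DR was listed at 0. KO DR was lower than KO AL by a log2 difference of -2.07 (SE 1.12).

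Ltf and Aqp5, which serve secretion, had higher values in both KO groups than in both WT groups, Ltf the highest in KO AL and Aqp5 in KO DR, whereas Csn3 was at or near 0 in all groups. Ltf, the iron-binding protein lactoferrin of milk, mucosal secretions and neutrophil granules, had an FPKM of 0.0129 in WT AL WAT (0 to 0.0568), 14.6 in KO AL (6.07 to 23.2), 0.0538 in WT DR (0 to 0.193) and 11.1 in KO DR (0 to 22.4). The log2 difference was 10.14 (SE 2.48) under AL and 7.68 (SE 2.01) under DR, the widest on each diet among the genes above 0 in both groups, from WT values near 0. With 0.1 added to each FPKM before the log, the AL difference was 7.03.

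Aqp5, a water channel of the secretory surface of glands, had an FPKM of 0.227 in WT AL WAT (0 to 0.564), 6.84 in KO AL (2.28 to 11.4), 0.924 in WT DR (0 to 2.29) and 8.79 in KO DR (0 to 18.6). Its log2 difference was 4.92 (SE 1.18) under AL and 3.25 (SE 1.34) under DR. Csn3, the kappa-casein that stabilises milk micelles, was listed at 0 in WT AL and KO AL and had 0.0286 in WT DR (0 to 0.424) and 0.0190 in KO DR (0 to 0.421). Csn3 therefore showed no difference between the WAT groups that the intervals could resolve.

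The basal keratins followed another order and were highest in KO DR alone. Krt14 had an FPKM of 0.120 in WT AL WAT, 0.330 in KO AL (0 to 0.755), 0.185 in WT DR and 1.73 in KO DR (0 to 4.31). Krt5, its partner, was listed at 0 in both WT groups and had 0.0990 in KO AL (0 to 0.329) and 3.05 in KO DR (0 to 6.37). KO DR exceeded KO AL by a log2 difference of 2.39 (SE 1.42) for Krt14 and 4.94 (SE 1.85) for Krt5, and the KO DR intervals of both reached 0.

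**Figure D2:**
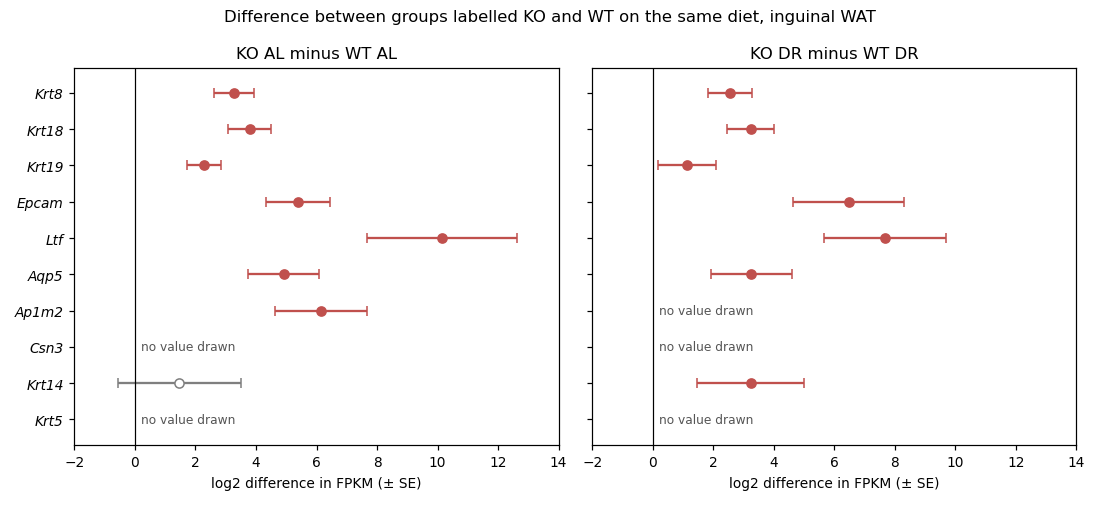
Log2 difference in FPKM between KO and WT in inguinal WAT (points, with SE as bars) under AL on the left and DR on the right. Filled points have an FPKM of at least 1 in either group, the open point does not, and genes listed at 0 in a group or with an SE over 5 are marked as not drawn. The 7 filled points under AL lie between 2.29 and 10.14, and Krt19 under DR lies nearest to 0 at 1.12.

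Across the 10 genes, 9 had a higher FPKM in KO AL than in WT AL and 1 (Csn3) was at 0 in both. Over the 8 genes above 0 in both groups the median log2 difference was 4.36, and over all 15481 entries tested in this comparison it was -0.06. The 95% intervals of KO AL lay above those of WT AL for 7 of the 10 genes and for 1.31% of all tested entries. Under DR, 9 genes were higher in KO than in WT, the median over the 8 above 0 in both groups was 3.24 (0.09 over all 14820 entries), and the intervals were apart for 2 of the 10 (Krt18 and Epcam) and for 0.31% of all tested entries. The genes were chosen with these values known, so the counts describe the choice and nothing was read from them.

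In WT mice the simple keratins differed little between the diets. In WT DR against WT AL, 7 genes had a higher value, 2 (Epcam and Ap1m2) a lower one and Krt5 was at 0 in both. Of all tested entries, 40.8% had the higher value in WT DR. The log2 difference was 0.24 (SE 0.61) for Krt8, 0.51 (SE 0.70) for Krt18 and 0.73 (SE 0.81) for Krt19, each less than its SE. This comparison and that of KO AL share the WT AL libraries.

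In KO mice, DR went with both higher and lower values. Between KO DR and KO AL the log2 difference was -0.04 (SE 0.78) for Krt18, -0.48 (SE 0.77) for Krt8, -0.40 (SE 0.85) for Ltf, -1.02 (SE 0.76) for Epcam and 0.36 (SE 0.94) for Aqp5. In this comparison 4 of the 10 genes (Aqp5, Csn3, Krt14 and Krt5) had the higher value in KO DR and 6 the lower. Of all tested entries, 50.6% had the higher value in KO DR. The difference between the KO against WT comparisons on DR and on AL was -0.73 (SE 0.98) for Krt8, -0.55 (SE 1.05) for Krt18, -1.17 (SE 1.11) for Krt19 and 1.07 (SE 2.11) for Epcam on the log2 scale.

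Whether the other genes of epithelial cells moved with these 10 was examined with lists of 159 genes in 13 groups, of which 151 have a single-gene row and 8 stand only in rows that join several genes. Each log2 ratio was divided by its SE (a two-sided Wald test), adjusted by Benjamini-Hochberg over all tested entries, and called at a false discovery rate (FDR) of 10%. Rose and fell below mean called in this way. No p of a single gene is given because the SE comes from the authors' intervals and not from values per library. In KO AL against WT AL, 18 of 99 tested list genes rose and none fell, while 1.04% of all tested entries rose and 0.245% fell. Of these 18, 11 were among the 49 tested genes of the 5 epithelial and mammary lists and 7 among the 50 tested genes of the other 8 lists. Since epithelial lists were assembled with earlier results of these data known, they are not independent evidence of a direction.

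Of the luminal and general epithelium list, 5 of 16 tested genes rose and none fell, and all 16 had the higher value in KO AL (median of the log2 differences 3.34). Prom1, a protein of apical membrane protrusions, rose by 3.45 on the log2 scale under AL (SE 0.98), and Erbb3, a growth factor receptor of epithelium, by 2.79 (SE 0.79). Cd24a, a surface glycoprotein, rose by 2.41 (SE 0.60) and Spint2, an inhibitor of epithelial serine proteases, by 2.18 (SE 0.47).

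Of the epithelial junction list, 2 of 11 tested genes rose, and all 12 had the higher value in KO AL. Cldn3, a sealing claudin of tight junctions, had an FPKM of 2.64 in WT AL WAT (0 to 5.49), 337 in KO AL (194 to 479), 2.68 in WT DR (0 to 6.32) and 15.3 in KO DR (0 to 33.9). It rose by 6.99 on the log2 scale (SE 0.84) under AL, the highest level among the epithelial junction genes. Perp, a desmosome protein, rose by 2.73 (SE 0.83).

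Of the epithelial transcription and splicing list, 2 of 6 tested genes rose, and they are the 2 steroid hormone receptors in it. Pgr, the progesterone receptor, had an FPKM of 0.0920 in WT AL WAT, 3.76 in KO AL (0.761 to 6.76), 0.554 in WT DR and 0.297 in KO DR, and rose by 5.35 on the log2 scale under AL (SE 1.21). Esr1, the oestrogen receptor alpha, was at 3.82, 14.6, 10.3 and 7.48 in the same order, and rose by 1.94 (SE 0.50). Elf3, an epithelial ETS factor, was listed at 0 in WT AL and had 8.88 in KO AL, 0.0147 in WT DR and 8.48 in KO DR.

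**Figure D3:**
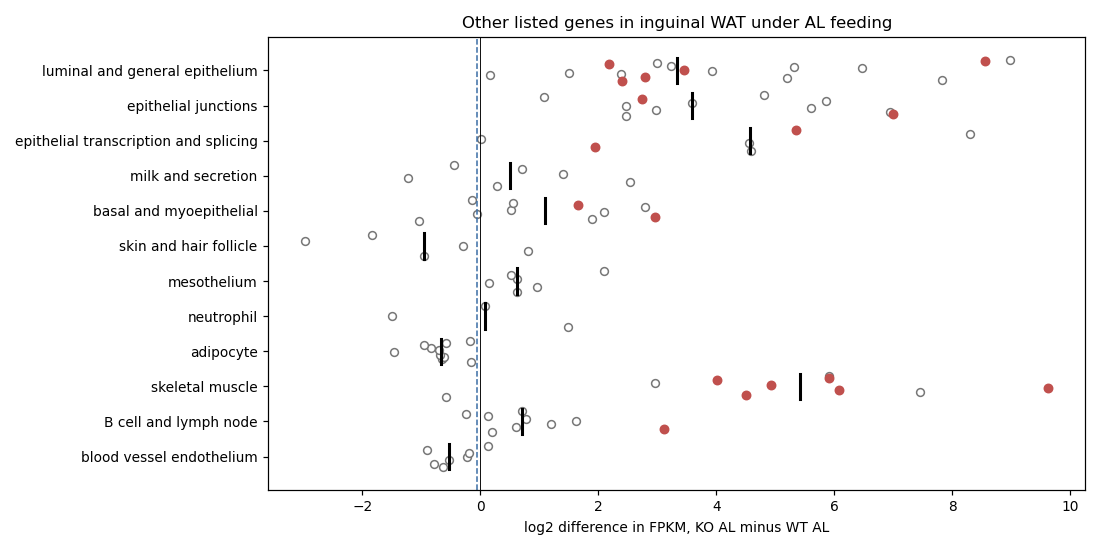
Log2 difference in FPKM between KO AL and WT AL WAT for the tested genes of each list (points, filled where called at an FDR of 10%), with the list median as a black bar and the median of all tested entries (-0.06) as a dashed line. The luminal, junction and transcription lists have medians between 3.34 and 4.57, and the skeletal muscle list has a median of 5.42. The salivary, lacrimal and sweat gland list had no tested gene and is not drawn.

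Of the milk and secretion list 0 of 6 tested genes were called, and 12 of its 18 genes were below an FPKM of 1 in all 4 WAT groups. Csn1s1, Csn1s2b, Wap and Btn1a1, which encode caseins, whey acidic protein and the milk fat globule protein butyrophilin, were listed at 0 in all 4 groups, and Csn2 was at most 0.0338. The 6 others reached an FPKM of 1 in at least 1 group, and the 2 highest of them were Mfge8, a protein of milk fat globules and of vessels and phagocytes (422 in WT AL, 180 in KO AL, 184 in WT DR and 310 in KO DR), and Xdh, an enzyme of purine breakdown (31.7, 23.2, 25.6 and 21.7). Pigr, the receptor that carries antibodies across epithelium, was at 2.25, 5.96, 3.27 and 1.51, Folr1, a folate receptor, at 2.04, 2.48, 2.04 and 6.41, Glycam1, a mucin of milk and of lymph node vessels, at 0.526, 3.05, 0.114 and 3.16, and Spp1, osteopontin, at 1.05, 1.71, 0.492 and 11.7. Elf5, the alveolar factor of the mammary gland, was at most 0.0596 and Foxa1, a luminal factor, at most 0.0205.

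Of the basal and myoepithelial list, 2 of 10 tested genes rose in KO AL, both of which also serve smooth muscle. Cnn1, calponin, rose by 2.96 on the log2 scale (SE 0.56), and Myh11, smooth muscle myosin, by 1.65 (SE 0.42). The lists thus hold both milk genes at or near 0 and other genes of glands that were present. Whether the RNA of the 10 genes came from mammary epithelium was not tested, and they are named here by their leading genes, the simple keratins.

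Under DR the test called 0 of 94 list genes in KO against WT, with 6 at an unadjusted p under 0.05, while 0.216% of all tested entries rose and 0.0675% fell. Of all 14820 tested entries, 223 had an unadjusted p under 0.05. Of the 43 genes of the luminal, junction and transcription lists, 37 had the higher value in KO DR than in WT DR, 41 in KO AL than in WT AL, and 40 in KO AL than in KO DR. The first and last counts share the KO DR libraries, and the last 2 share the KO AL libraries. Over all tested entries, 56.5% had the higher value in KO DR than in WT DR and 45.2% in KO AL than in WT AL. In KO DR against KO AL, 50.6% of them were higher in KO DR. Wfdc2, a secreted protease inhibitor of glandular epithelium, had an FPKM of 0.207 in WT AL WAT, 104 in KO AL (0 to 251), 0.246 in WT DR and 19.2 in KO DR (0 to 62.6), with a log2 difference of 6.29 (SE 3.04) under DR. Cldn7, a claudin, was at 0.137, 16.9, 0.108 and 8.59, with 6.31 (SE 4.40). Spint2 was at 17.6, 79.8, 21.8 and 44.1, with 1.01 (SE 0.92).

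In WT mice on DR against AL, 5 of 75 tested list genes were called, of which Acta2 (smooth muscle actin, of the basal list) fell by 2.56 on the log2 scale (SE 0.70) and 4 were skeletal muscle genes that rose. Of all tested entries 0.261% rose and 0.308% fell. In KO mice on DR against AL, 1 of 105 tested list genes was called, while 0.289% of all entries rose and 0.418% fell. This gene was Cldn3, which fell by 4.46 on the log2 scale (SE 0.93). In the test of the difference between the KO against WT comparisons on the 2 diets, 0.125% of 14386 entries were called, and the 2 list genes among them, of 89 tested, were Ckm and Myh4 of skeletal muscle.

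Genes of other cell types also differed between the WAT groups. The skeletal muscle list summed to an FPKM of 533 in WT AL WAT, 1417 in KO AL, 464 in WT DR and 782 in KO DR, with none of its 10 genes at 0, and 6 of 10 rose in KO AL. Acta1, skeletal actin, had 507 of the sum in WT AL and was at 337, 112 and 327 in KO AL, WT DR and KO DR, and the other 9 genes summed to 26.3 in WT AL, 1079 in KO AL, 352 in WT DR and 454 in KO DR. Myh4, a fast myosin, was at 0.0699, 55.0, 20.6 and 30.3, and Ckm, muscle creatine kinase, at 2.2, 148, 114 and 81.0 in the same order. Tnni2, a fast troponin, was at 1.54, 92.3, 29.6 and 50.2. Myh4 and Ckm also rose in WT DR against WT AL. The part of muscle RNA in the result was not tested.

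The adipocyte list summed to 24791 in WT AL, 16567 in KO AL, 28984 in WT DR and 21247 in KO DR. None of its 10 genes was at 0 in any group, and 0 of 10 were called in either comparison of KO with WT. Adipocyte markers were thus present in all groups, which does not check the depot. Fabp4 and Adipoq were the 2 highest of them by the mean over the 4 groups. In bulk tissue, fewer cells of a type and less RNA per cell cannot be told apart. The neutrophil list summed to 16.7, 14.8, 13.6 and 46.7, with none of its 10 genes at 0 and Mpo at most 0.0828. Lcn2, a protein of both neutrophils and epithelium, made up 38.0 of the KO DR sum, and S100a8 was at 9.66, 3.42, 3.29 and 2.75. S100a9 was at 2.67, 2.83, 4.83 and 3.16, and Elane at 0.843, 0.883, 2.58 and 1.55.

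The B cell and lymph node list summed to 39.9, 74.6, 23.5 and 56.5 in WT AL, KO AL, WT DR and KO DR WAT, and 1 of 9 tested genes rose in KO AL: Ccl21a, a lymphatic chemokine, by 3.11 on the log2 scale (SE 0.83). The blood vessel endothelium list summed to 615, 399, 381 and 301, led by Cldn5 and Cdh5, and 0 of 7 were called in KO AL. The skin and hair follicle list summed to 11.0, 6.30, 8.70 and 30.8, led by Lgals7 and Krtdap by the mean over the 4 groups, with Krt2 and Krt71 at 0 throughout and 0 of 5 called in KO AL. Of the salivary, lacrimal and sweat gland list, 5 of 6 genes were at 0 in all 4 groups.

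The mesothelium list was present in every WAT group, although a subcutaneous depot has no mesothelial covering. It summed to 53.5 in WT AL, 80.9 in KO AL, 123 in WT DR and 121 in KO DR, with none of 7 genes at 0 and 0 of 6 called in KO AL. Upk3b was at 34.6, 49.3, 85.0 and 82.6 and Msln at 8.10, 8.98, 8.21 and 13.1 in that order, both of them defining markers of mesothelium. Krt8 was at 2.57, 24.9, 3.04 and 17.8 in the same order, and Krt18 at 2.54, 35.3, 3.61 and 34.2. Krt19 was at 11.4, 55.9, 19.0 and 41.3. The part of mesothelium RNA in the levels of Krt8, Krt18 and Krt19 was not tested.

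Genes of the female reproductive tract were set beside the 10 genes in a list written after the WAT values had been seen, so they are given with no test. The 17 single-gene entries of the uterus and oviduct list summed to an FPKM of 49.7 in WT AL WAT, 317 in KO AL, 31.7 in WT DR and 146 in KO DR, with 5, 0, 5 and 0 of them at 0. An FPKM of 1 was reached by 6, 15, 7 and 11 of them. The highest gene in each group was at 32.3, 101, 12.9 and 74.3. The entry that joins Ovgp1 with Wdr77 was at 12.8, 26.3, 9.65 and 69.8. Pax8, a transcription factor of Müllerian duct and kidney epithelium, was listed at 0 in both WT groups and had 13.0 in KO AL (3.87 to 22.1) and 1.94 in KO DR (0 to 4.80). Prap1, a secreted protein of uterine and gut epithelium, was listed at 0 in both WT groups and had 73.9 in KO AL (14.2 to 134) and 74.3 in KO DR (0 to 162). Hoxa11, which patterns the uterus and limbs, was at 2.25, 27.6, 3.16 and 4.27 in WT AL, KO AL, WT DR and KO DR, and Msx1, a homeobox factor of uterine epithelium among other tissues, at 1.84, 40.2, 2.37 and 3.14.

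The ovary list, written at the same time, was highest in KO DR: its 9 single-gene entries summed to 13.7 in WT AL WAT, 12.6 in KO AL, 3.98 in WT DR and 203 in KO DR. An FPKM of 1 was reached by 1, 3, 2 and 7 of the 9, and the highest gene in each group was at 11.9, 5.27, 1.71 and 164. Inha, the inhibin alpha subunit of granulosa cells, was at 0.454, 1.54, 0.754 and 164 (0 to 462 in KO DR), and Star, which brings cholesterol into mitochondria for steroid synthesis, at 0.577, 0.953, 1.26 and 18.7 (0 to 41.0 in KO DR). The entry that joins Cyp11a1, the first enzyme of steroid synthesis, with Gm17322 was at 0.506, 0.454, 0.168 and 543. Genes of 3 other organs were checked in the same way. The bladder list of 3 genes summed to 0.361, 1.37, 0.224 and 3.19, with its marker Upk2 at most 0.0370. The highest gene of the bladder list in each group was at 0.361, 1.35, 0.224 and 3.11. The gut list summed to 19.1, 17.2, 4.19 and 7.66, with Cdx2 at 0 in all 4 groups. Its highest gene in each group was at 18.4, 16.9, 4.06 and 7.38. The lung list summed to at most 0.167, with Nkx2-1 at 0 in all 4 groups. The part of reproductive tract or ovary RNA in the levels of the 10 genes was not tested.

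**Figure D4:**
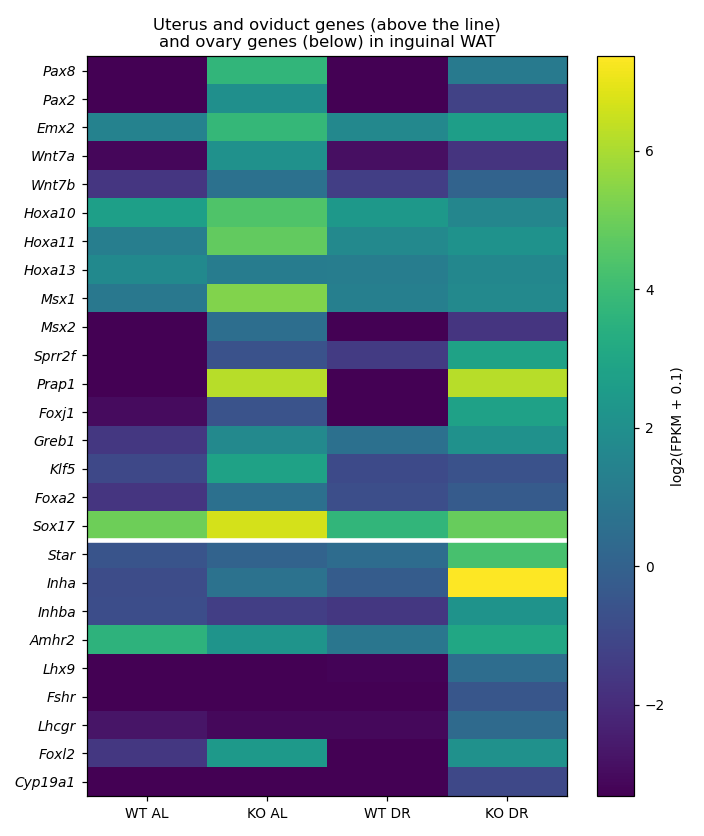
Level as log2(FPKM + 0.1) of the 17 uterus and oviduct genes (above the white line) and the 9 ovary genes (below it) in the 4 WAT groups. Pax8 and Prap1 are high in KO AL and KO DR and at 0 in both WT groups, Hoxa11 and Msx1 are highest in KO AL, and Inha and Star are highest in KO DR.

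In the 3 other tissues the 10 genes had levels of their own. In liver, whose hepatocytes use Krt8 and Krt18 as their only keratin pair, Krt8 had an FPKM between 98.7 and 150 and Krt18 between 135 and 175 over the 4 groups. Krt19, which hepatocytes lack, was between 0.332 and 0.915 there, and Krt14 and Krt5 were listed at 0 in all 4 liver groups. In brain each of the 10 genes was below an FPKM of 3 in each group, and Csn3 was listed at 0 in all 4.

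**Figure D5:**
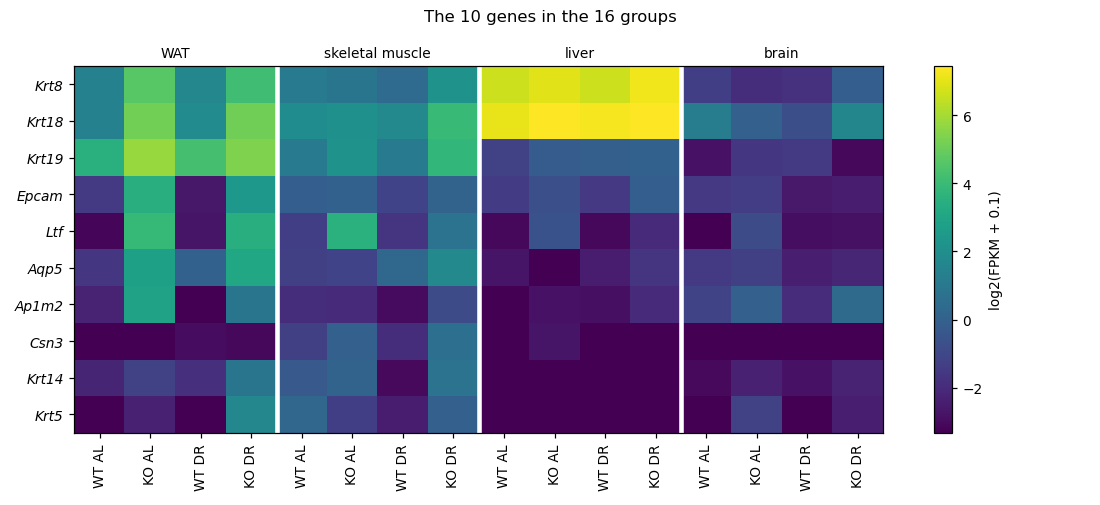
Level as log2(FPKM + 0.1) of the 10 genes (rows) in the 16 groups (columns), by tissue. Liver is brightest for Krt8 and Krt18, KO AL and KO DR WAT for Krt19, and Ltf has a second high value in KO AL skeletal muscle.

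In skeletal muscle, 2 calls were made in 24 tests of the 10 genes over the 4 comparisons, 9 having an unadjusted p under 0.05. These tests share groups between comparisons and are not independent. Of all muscle entries, 449 of 14102 had such a p in KO AL against WT AL and 712 of 14089 in WT DR against WT AL. The counts were 814 of 14021 in KO DR against WT DR and 282 of 14008 in KO DR against KO AL. Ltf had an FPKM of 0.294 in WT AL muscle (0 to 0.661), 11.7 in KO AL (0 to 23.6), 0.206 in WT DR (0 to 0.483) and 1.62 in KO DR (0.405 to 2.84). It rose by 5.32 on the log2 scale in KO AL against WT AL (SE 1.16), where 1 of 5 tested genes and 0.681% of all entries were called. The neutrophil list moved with it: its sum was 6.31 in WT AL muscle, 734 in KO AL, 26.2 in WT DR and 36.6 in KO DR. In KO AL 4 of 9 tested genes rose, and all 10 had the higher value there, as had 46.9% of all tested entries. Mpo, a defining granule enzyme of neutrophils, was at 0.129 in WT AL muscle and 17.5 in KO AL. In WAT it was near 0 in every group, but Elane of the same list was between 0.843 and 2.58 there. The part of neutrophil RNA in the value of Ltf was not tested in muscle or in WAT.

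Krt18 had an FPKM of 3.71 in WT AL muscle, 4.11 in KO AL, 3.22 in WT DR (0.935 to 5.50) and 15.1 in KO DR (5.11 to 25.0). It rose by 2.23 on the log2 scale in KO DR against WT DR (SE 0.70), where 1 of 7 tested genes and 2.23% of all entries were called. All 10 genes had the higher value in KO DR, as had 52.9% of all tested entries. In WT DR, Krt14 was at 0.0217, Ap1m2 at 0.0243 and Krt5 at 0.0837. Krt19 was at 2.13, 4.44, 2.12 and 13.9 in WT AL, KO AL, WT DR and KO DR muscle, and Aqp5 at 0.307, 0.355, 1.15 and 3.30, neither of them called. In the other muscle comparisons 0 of 5 tested genes were called in WT DR against WT AL (1.4% of all entries), and 0 of 7 in KO DR against KO AL (0.5% of all entries). In the latter 5 of the 7 had an unadjusted p under 0.05, as had 282 of all 14008 entries.

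The Wald test made 0 calls among the 10 genes in liver, in 8 tests with 0 at an unadjusted p under 0.05, and 0 in brain, in 6 tests with 3 at an unadjusted p under 0.05. Of these, 2 were in KO DR against WT DR, where 1145 of all 15262 entries had such a p. The other 1 was in KO DR against KO AL, where 385 of 15349 had. The share of all liver entries called was 0.316% in KO AL against WT AL, 0.236% in WT DR against WT AL, 0.288% in KO DR against WT DR and 0.611% in KO DR against KO AL. In brain these shares were 0.203%, 0.224%, 1.16% and 0.365% in the same order. Krt18 in brain was at 2.17, 0.879, 0.496 and 2.96 in WT AL, KO AL, WT DR and KO DR, and its log2 difference in KO DR against WT DR was 2.58 (SE 0.80), which was not called.

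The single-gene entries whose pattern over the 16 groups was most like the mean of the 10 genes were found by Pearson's r of log2(FPKM + 0.1), as a description over groups that share a table and normalization. They were Fcgbp, a mucus protein (r = 0.912), Cldn4 (0.900), Fbxl22 (0.868), Igkv1-88 (0.862), Elf3 (0.861), Lrrc26 (0.856), Rab25 (0.848) and Padi1 (0.832). Only entries with an FPKM of at least 1 in a WAT group were ranked. The mean holds the WAT values on which the 10 genes were chosen. Fcgbp was listed at 0 in both WT groups and had 7.29 in KO AL WAT and 9.24 in KO DR. Cldn4, a claudin, was listed at 0 in both WT groups too and had 16.9 in KO AL and 2.12 in KO DR, and Rab25, an epithelial trafficking GTPase, was at 0.256, 10.2, 0 and 5.39. Igkv1-88, an antibody light chain segment, was at 0.679, 18.2, 0.178 and 15.0. Of the 10 genes themselves, Epcam had the highest r with their mean (0.908) and Krt8 (0.320) and Krt18 (0.341), which are high in liver, the lowest. This mean includes the gene compared with it.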

How the data were processed

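The authors trimmed single-end Ion Proton reads with cutadapt 1.5, mapped them to GRCm38 with BBMap and ran Cuffdiff 2.2.1 with geometric normalization. They deposited pooled FPKM values per group with 95% intervals. The distance from the FPKM to its upper bound was taken as 2 SD. Log2 differences were tested with a two-sided Wald test (delta-method SE, normal reference) where both groups were above 0 and one reached an FPKM of 1. P-values were adjusted (Benjamini-Hochberg) over all entries of a tissue and comparison at an FDR of 10%, with Python 3.11.15, numpy 2.4.6, pandas 2.3.3 and scipy 1.17.1. The test was run on simulated data whose noise had the SD given to the test, which cannot check the authors' intervals. P-values use the authors' intervals, since the pooled table holds no value per library. The paper states that replicate dispersion was estimated within each condition. Joined entries were left out of the lists.

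The 10 genes and all lists were chosen with earlier results of these data known, and the reproductive tract, ovary, bladder, gut and lung lists after the WAT values were seen. Named beside the 10 genes were up to 3 called genes per list with the largest difference or, where none was called, the 2 with the highest mean FPKM, the 8 entries most alike in pattern, and Irs1. Other names (further milk list genes, mammary factors, Cd24a, Acta1, Mpo, S100a9, Elane, and the genes of the later lists) were chosen after their values were seen. The values of 1 gene named by this rule are not reported here. Alternatives were an FDR of 5%, pseudocounts of 0.1 and 1, no filter, a minimum FPKM of 5, a smaller SD, centring and no joined entries.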

Additional observations from a re-analysis of the deposited data

Results flagged for a closer look

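The difference between the KO against WT comparisons on DR and on AL was itself tested for the list genes in WAT, and 2 skeletal muscle genes passed the Wald test at an FDR of 10%. For Myh4 the log2 difference on DR less that on AL was -9.07 (SE 1.64), with an FPKM of 0.0699 in WT AL, 55.0 in KO AL, 20.6 in WT DR and 30.3 in KO DR. For Ckm it was -6.57 (SE 1.36), with 2.2, 148, 114 and 81.0 in the same order. For both genes WT AL was the low group.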

How the results depend on the processing

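No paired analysis was possible because the table holds 1 pooled value per group, and for the same reason no library could be left out. The number of list genes called in WAT under KO AL against WT AL was 18 and went to 39 with each SD divided by the square root of the number of libraries. Under WT DR against WT AL it was 5, and 2 at an FDR of 5%. Under KO DR against WT DR it was 0, with 1 at a pseudocount of 0.1, 1 at a pseudocount of 1 (Lcn2) and 4 with the smaller SD. Under KO DR against KO AL it was 1, with 2 at either pseudocount (Cldn3 and Pgr) and 18 with the smaller SD. The 2 interaction calls became 7 with the smaller SD. Of the 10 genes, the 2 calls in skeletal muscle became 1 at an FDR of 5%, 1 without the filter on low FPKM (Ltf in both) and 12 with the smaller SD. The 0 calls in brain became 1 at a pseudocount of 0.1, 1 at a pseudocount of 1 (Krt18 in both) and 3 with the smaller SD. The WAT log2 differences of the 10 genes kept their direction under both pseudocounts and centring, and moved by more than 1 SE in 1 of 32 at a pseudocount of 0.1 and 8 of 32 at a pseudocount of 1, each towards 0. Library depth is unknown, so the precision rests on the authors' intervals.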
